A study of Mus musculus with 21 samples.

Results

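RNA positions crosslinked to SRSF7 in the nucleoplasm were compared with those in the cytoplasm of mouse P19 cells. The comparison takes in 6 of the 21 samples of the series, 3 nucleoplasm and 3 cytoplasm replicates of the SRSF7-GFP line, chosen by protein and fraction. P19 is an embryonal carcinoma line, an undifferentiated tumour cell line with properties of early embryonic cells. The samples cover SRSF3-GFP, with 4 replicates per fraction, and SRSF7-GFP, with 3, in chromatin, nucleoplasm and cytoplasm. Ultraviolet light of 254 nm at 100 mJ/cm2 was given to all cells before fractionation and iCLIP. For each protein and fraction the authors pooled the replicates into a single list of positions, so variation among replicates is unknown and the text holds no p-values. The protein studied is a GFP fusion made in a single cell line, and none of the samples comes from cells without a tagged protein.

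SRSF7 is an SR protein, a family with an RNA-binding domain and a tail rich in serine and arginine that acts in splicing, in mRNA export and in later steps of mRNA use. Several SR proteins shuttle between nucleus and cytoplasm. In iCLIP, the protein is fixed by ultraviolet light to RNA in contact with it, and each distinct cDNA ends where reverse transcriptase met such a crosslink. Nucleoplasm holds RNA released from chromatin and not yet exported, and cytoplasm holds exported RNA together with mitochondria.

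The nucleoplasm list held 130679 positions with 275018 cDNAs, and the cytoplasm list 142444 positions with 367298 cDNAs. The mean count per position was 2.10 in nucleoplasm and 2.58 in cytoplasm. Positions with a single cDNA made up 71.8% of the first list and 71.6% of the second. The lists differed at their tall end, since positions with more than 20 cDNAs numbered 1288 in nucleoplasm and held 21.7% of its cDNAs, against 2209 holding 36.3% in cytoplasm. The distance to the next listed position on the strand had a median of 5 nt in both lists and an upper quartile of 33 nt in nucleoplasm and 19 nt in cytoplasm. Plus-strand positions held 48.5% of nucleoplasm cDNAs and 58.0% of cytoplasm cDNAs. All comparisons below are of shares of a list's summed cDNAs. RNA abundance in the fractions was not among the measurements used, so a larger share can be more RNA in the fraction or more binding per RNA, and these cannot be told apart.

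RNA of the mitochondrial genome was listed far more in cytoplasm. It held 3964 nucleoplasm cDNAs at 439 positions, a share of 1.44% (exact 95% Clopper-Pearson interval 1.40 to 1.49). In cytoplasm it held 32637 cDNAs at 1949 positions, a share of 8.89% (8.79 to 8.98). The cytoplasm share was 6.16-fold the nucleoplasm share (5.96 to 6.37, 95% conditional exact binomial interval). All intervals cover counting error only. The plus strand held 1.345% of nucleoplasm and 8.07% of cytoplasm cDNAs. The minus strand held 0.0964% and 0.820%, a wider gap of 8.51-fold. In SRSF7 chromatin the whole mitochondrial genome held 0.322%, so nucleoplasm lay between chromatin and cytoplasm.

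The mitochondrial genome encodes 2 ribosomal RNAs, 22 transfer RNAs and messenger RNAs for subunits of the respiratory chain. Genes were named through the RefSeq gene table of GRCm38.p6, whose mitochondrial record is taken to be the same sequence as that of mm9. In both lists 0 cDNAs lay within a mitochondrial gene on the strand opposite to it. Of the 37 genes, 17 were listed in nucleoplasm and 22 in cytoplasm. The genes absent from both, among them COX2, COX3, ATP6, ATP8, ND3 and ND4L, had no cDNA in any of the 6 lists of the series. All 15 genes with at least 50 cDNAs in both lists together and 10 in each had an interval beyond 2-fold lower in nucleoplasm, which is 100.0% of those tested. With the transfer RNA for histidine, TrnH, which had too few cDNAs for that count, the median log2 ratio of nucleoplasm over cytoplasm shares was -3.51 over 16 genes.

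**Figure D1:**
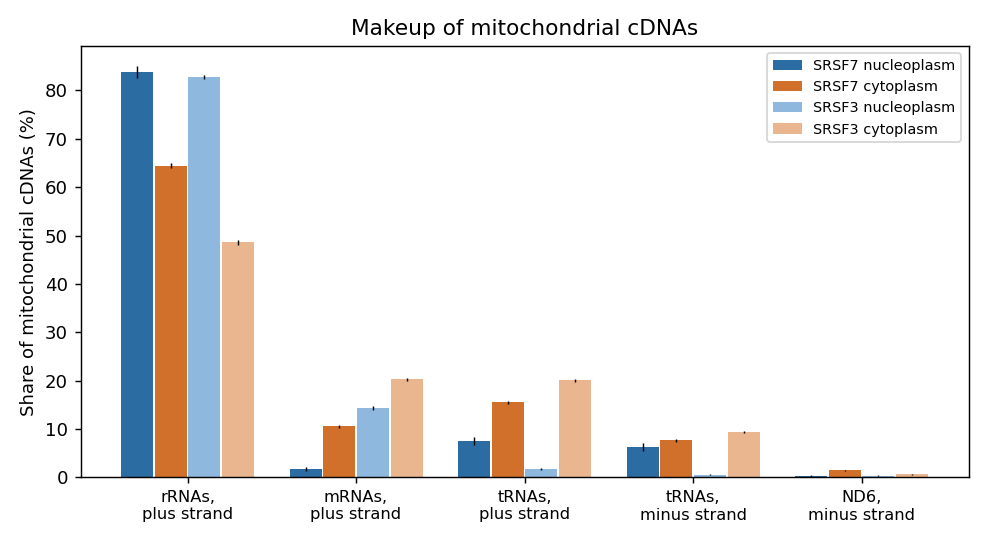
Bars show the share of each list's mitochondrial cDNAs in each class of mitochondrial genes (percent), with exact 95% intervals, for the nucleoplasm and cytoplasm lists of SRSF7 and, in paler colours, of SRSF3. Ribosomal RNAs held 83.8% of SRSF7 nucleoplasm and 64.4% of SRSF7 cytoplasm mitochondrial cDNAs, and plus-strand messenger RNAs 1.79% and 10.6%.

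The makeup of the mitochondrial cDNAs differed as well. The ribosomal RNAs held 83.8% of them in nucleoplasm (82.6 to 84.9) and 64.4% in cytoplasm (63.9 to 64.9). Plus-strand messenger RNAs held 1.79% in nucleoplasm (1.40 to 2.25) and 10.6% in cytoplasm (10.2 to 10.9). Ribosomal RNA was thus the larger part of the small nucleoplasm signal. Plus-strand transfer RNAs held 7.47% and 15.5%, and minus-strand transfer RNAs 6.31% and 7.68%. The minus-strand messenger RNA ND6, for a subunit of respiratory complex I, held 0.227% with 9 cDNAs and 1.45% with 474 cDNAs.

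Within the ribosomal RNAs the pair behaved differently. The large-subunit RNA mt-Rnr2 held 2786 nucleoplasm cDNAs and 12504 cytoplasm cDNAs, or 70.3% and 38.3% of each list's mitochondrial cDNAs. Its log2 ratio was -1.75 (-1.81 to -1.69) among all cDNAs and 0.88 (0.82 to 0.93) among mitochondrial ones. The small-subunit RNA mt-Rnr1 held 536 and 8507 cDNAs, with a log2 ratio of -3.57 (-3.70 to -3.45) among all cDNAs. The interval of mt-Rnr1 thus lay wholly below that of mt-Rnr2. The tallest mitochondrial position of both lists was nucleotide 2647 in mt-Rnr2, with 489 nucleoplasm and 1223 cytoplasm cDNAs. It held 12.3% of nucleoplasm and 3.75% of cytoplasm mitochondrial cDNAs. The 5 tallest mitochondrial positions of nucleoplasm were all in mt-Rnr2, at nucleotides 2647, 1321, 1852, 2635 and 1854. Those of cytoplasm were 2647 and 2657 in mt-Rnr2, 338 and 993 in mt-Rnr1, and 2703 in TrnL1, a transfer RNA for leucine. Nucleotide 2657 stood out by its contrast with its neighbour, with 20 nucleoplasm and 442 cytoplasm cDNAs.

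Among the messenger RNAs, COX1, for a catalytic subunit of cytochrome c oxidase, had 21 cDNAs in nucleoplasm and 2087 in cytoplasm. Its log2 ratio of -6.22 (-6.91 to -5.60) was the lowest of the 16 genes. ND4, for another complex I subunit, had 21 and 357 cDNAs, and ND1, of the same complex, 29 and 256. COX1 was the only messenger RNA of these 3 with an interval beyond 2-fold lower among mitochondrial cDNAs alone, at -3.59 (-4.29 to -2.98). With TrnF, the transfer RNA for phenylalanine, it made up the 2 of 15 genes (13.3%) past that limit. TrnF had 13 and 644 cDNAs and a value of -2.59 (-3.51 to -1.80). The highest log2 ratio among all cDNAs was that of TrnH at -1.29 (-2.42 to -0.29), from 11 and 36 cDNAs, each at a single position. The minus-strand transfer RNAs varied among themselves, as TrnC, for cysteine, had 121 and 690 cDNAs and TrnA, for alanine, 27 and 586. ND2, ND5, CYTB, TrnQ and TrnT were listed in cytoplasm with 175, 388, 188, 201 and 122 cDNAs and had no nucleoplasm entry. These genes and ND6 were outside the count of 15 through its minimum of 10 cDNAs in each list. Their intervals among mitochondrial cDNAs also lay beyond 2-fold lower, with upper bounds of -2.51, -3.67, -2.62, -2.71, -1.98 and, for ND6, -1.74. An entry missing from a list does not show that the RNA was unbound, because only positions past the authors' threshold are listed.

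Loci were made by joining positions of all 6 lists of the series on 1 strand at gaps of up to 10000 nt, so close genes may fall together and a long gene may be divided. A locus was compared when it held at least 50 cDNAs over both lists, and no fewer than 10 in each of them. A call was made when the 95% interval of its ratio lay beyond 2-fold. Of 1248 compared loci, 282 held a larger share in nucleoplasm (22.6%) and 207 a smaller one (16.6%), so 39.2% were called in 1 direction. Without the mitochondrial genome the counts were 251 (20.1%) and 231 (18.5%) of 1246. The balance between directions rests on the denominator. Of the called loci, 57.7% were higher in nucleoplasm with all cDNAs, 52.1% without the mitochondrial genome and 44.6% when the 10 loci with the highest summed share were left out as well. Those left out held 24.4% of nucleoplasm and 37.8% of cytoplasm cDNAs. Leaving them out moved every log2 ratio by 0.28, and the median log2 ratio was 0.37 over all compared loci and 0.09 after it.

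**Figure D2:**
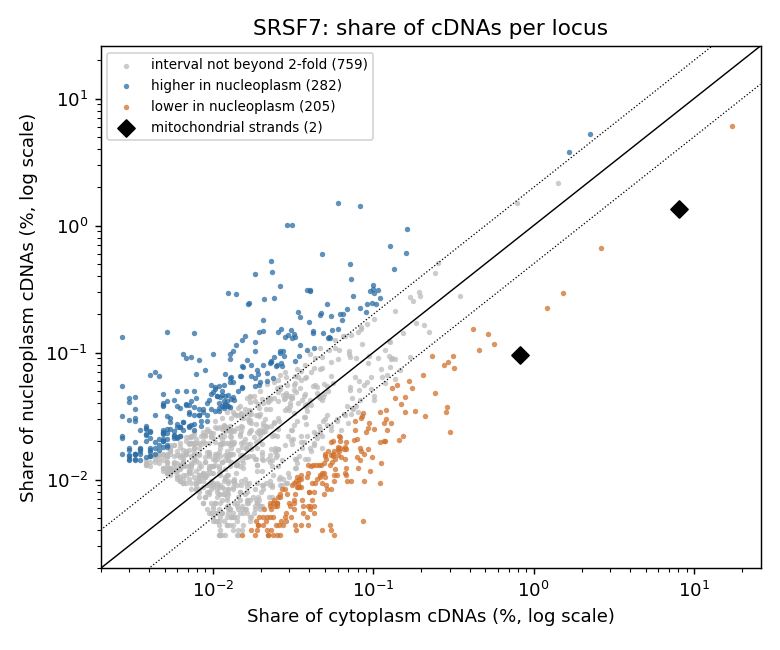
Each point is 1 of the 1248 compared loci, with its share of cytoplasm cDNAs on the horizontal and of nucleoplasm cDNAs on the vertical axis (percent, log scales); the solid line marks equal shares and the thin lines 2-fold differences. Blue points are the 282 loci called higher in nucleoplasm, orange points and the 2 black diamonds, the mitochondrial strands, the 207 called lower.

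The called loci held much of both lists. The 282 higher loci held 40.5% of nucleoplasm and 9.74% of cytoplasm cDNAs. The 207 lower loci held 12.4% and 47.1%. These sums describe the choice of loci and are no test of it. The sum of the differences in share, taken in 1 direction over all loci, came to 53.4 percentage points, and to 52.2 when the mitochondrial genome was left out of both lists. A single locus on chromosome 17 gave -11.2 points and the mitochondrial plus strand -6.72 points. On the nucleoplasm side no locus gave more than 2.98 points. The loss side was thus carried by few loci, with 37.2% of it in 3 of them, while the 10 largest gains made up 23.7% of the gain side.

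That locus was the first of both lists and lies between 39979938 and 39985047 of chromosome 17 in mm9, plus strand. It held 16803 nucleoplasm cDNAs at 1793 positions and 63591 cytoplasm cDNAs at 2251 positions. Its shares were 6.11% (6.02 to 6.20) and 17.3% (17.2 to 17.4), a log2 ratio of -1.50 (-1.53 to -1.48). Its positions differed in height, with a mean of 9.37 cDNAs per position in nucleoplasm and 28.3 in cytoplasm. Counted as shares of listed positions, the log2 ratio was -0.20. The tallest position was nucleotide 39984422 in both lists, with 895 and 1071 cDNAs. The last 718 nt of the locus formed 1 cluster with 60.4% of its nucleoplasm and 55.9% of its cytoplasm cDNAs. The first stretch, 39979939 to 39981125, held 19.8% and 11.7%, and 39983384 to 39983618 held 5.18% and 11.0%. In SRSF7 chromatin the locus held 19.7% of cDNAs. Nucleoplasm was therefore the fraction with the lowest share of it.

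Leaving this locus out reversed the standing of its chromosome. Chromosome 17 held 15.7% of all nucleoplasm and 22.0% of all cytoplasm cDNAs. The rest of the chromosome held 9.63% of all nucleoplasm cDNAs (9.52 to 9.74) and 4.68% of cytoplasm cDNAs (4.62 to 4.75). Chromosome 19 held 6.62% and 4.03% outside the mitochondrial genome, a log2 ratio of 0.72 (0.69 to 0.75), the highest of the chromosomes. Chromosome 5 had -0.53 (-0.57 to -0.50), the lowest after the -0.60 of chromosome 17. These values also rest largely on single loci. On chromosome 19, the loci at 5794731 and 8790307 held 10494 and 3929 of 17947 nucleoplasm cDNAs. In cytoplasm they held 6148 and 305 of 13477. On chromosome 5, the locus at 147072566 held 812 of 8280 nucleoplasm and 5618 of 14802 cytoplasm cDNAs. Neither chromosome was recomputed without these loci.

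Of the other leading nucleoplasm loci, the next 2 were high in both lists. The chromosome 17 locus (80586414 to 80606648, minus strand) held 14384 nucleoplasm and 8257 cytoplasm cDNAs, shares of 5.23% and 2.25% and a log2 ratio of 1.22 (1.18 to 1.26). A cluster of 1116 nt at 80603663 to 80604778 held 65.4% of these in nucleoplasm and 70.4% in cytoplasm. The chromosome 19 locus (5794731 to 5803434, minus strand) held 10494 and 6148 cDNAs, shares of 3.82% and 1.67% and a log2 ratio of 1.19 (1.14 to 1.23). Both loci passed 2-fold by a small margin. After centring on the median locus they were at 0.84 and 0.82, no longer past it.

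The chromosome 7 locus (67105899 to 67150421, minus strand) held 5954 and 5253 cDNAs, with a log2 ratio of 0.60 (0.54 to 0.65). A compact locus of 126 nt on chromosome 9 (78023133 to 78023258, minus strand) held 4121 and 2889 cDNAs, with a log2 ratio of 0.93 (0.86 to 0.999). Neither interval lay beyond 2-fold. In the second, all cDNAs of both lists fell in a single cluster of 87 nt with the tallest position at 78023166, with 523 and 254 cDNAs.

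A further set of leading nucleoplasm loci held little of the cytoplasm list. The chromosome 1 locus (162965305 to 162970711, plus strand) ranked 5th in nucleoplasm with 4127 cDNAs (1.50%) and 184th in cytoplasm with 223 (0.0607%). Its log2 ratio was 4.63 (4.43 to 4.83). On chromosome 19 (8790307 to 8801161, plus strand) the counts were 3929 and 305, with a log2 ratio of 4.10 (3.94 to 4.28). The chromosome 2 locus (166888719 to 166892672, plus strand) held 2775 and 107 cDNAs (5.11, 4.84 to 5.41), and that on chromosome 11 (62416375 to 62418258, plus strand) held 2763 and 114 (5.02, 4.75 to 5.30). In brackets stand the log2 ratio and its interval, here and below. The last pair had nucleoplasm shares 34.6-fold and 32.4-fold the cytoplasm shares, and their intervals lay farthest above equality of all compared loci.

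In these 4 loci a few narrow clusters held most cDNAs. On chromosome 2, clusters of 60, 33 and 33 nt at 166890510 to 166890569, 166890791 to 166890823 and 166888991 to 166889023 held 1519, 679 and 513 nucleoplasm cDNAs. Cytoplasm had 61, 0 and 30 cDNAs in the same clusters. On chromosome 11, clusters of 48, 57 and 62 nt held 1101, 946 and 692 nucleoplasm cDNAs against 29, 9 and 36 in cytoplasm. The 4 largest clusters held 98.9% and 99.4% of the nucleoplasm cDNAs of these 2 loci, 72.3% on chromosome 1 and 79.0% in the chromosome 19 locus at 8790307. In the broadly covered chromosome 19 locus at 5794731 they held 28.4%. On chromosome 1, a cluster at 162966198 to 162966232 had 669 cDNAs in nucleoplasm and 1 in cytoplasm, while one at 162965970 to 162966015 had 511 and 65. On chromosome 19, the cluster at 8800083 to 8800127 had 564 and 0. Tall nucleoplasm clusters of 1 locus thus differed in how far they were listed in cytoplasm.

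**Figure D3:**
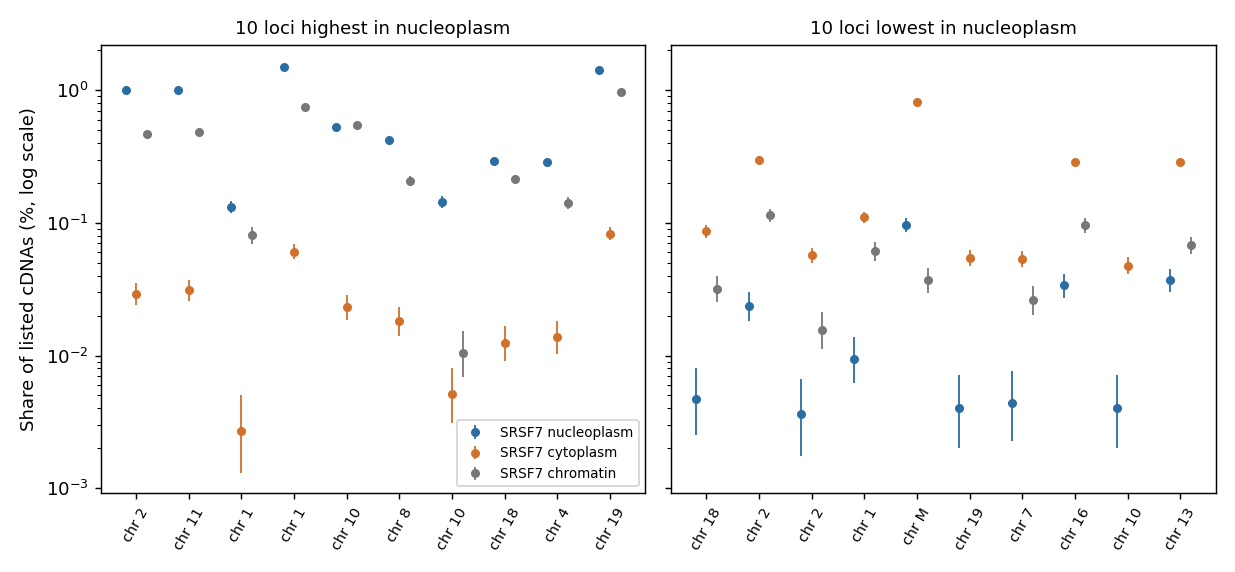
Points show the share of listed cDNAs (percent, log scale) with exact 95% intervals in SRSF7 nucleoplasm, cytoplasm and chromatin, for the 10 loci called highest and the 10 called lowest in nucleoplasm, ordered by the interval bound nearest to no change and labelled by chromosome. The highest locus, on chromosome 2, held 1.01% of nucleoplasm, 0.0291% of cytoplasm and 0.464% of chromatin cDNAs; loci with no chromatin entry have no grey point.

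The remaining loci at the top of the ranking were of 2 kinds. Some were again narrow and tall, such as one on chromosome 1 (9932583 to 9934202, minus strand), with 362 and 10 cDNAs, a log2 ratio of 5.60 (4.70 to 6.67) and all nucleoplasm cDNAs in a cluster of 34 nt. The chromosome 10 locus (23491634 to 23507008, minus strand) held 1444 and 85 cDNAs (4.50, 4.19 to 4.84). The chromosome 18 locus (75160176 to 75168721, plus strand) held 806 and 46 cDNAs (4.55, 4.12 to 5.01), and that on chromosome 4 (116821372 to 116855184, minus strand) held 795 and 51 (4.38, 3.97 to 4.82). Other loci were long and thinly covered. The chromosome 8 locus (115423192 to 115519525, minus strand), a span of 96.3 kb, held 1152 nucleoplasm cDNAs at 971 positions and 67 cytoplasm cDNAs at 61 positions (4.52, 4.17 to 4.90). Its tallest nucleoplasm position had 5 cDNAs, and its 4 largest clusters held 5.38% of its nucleoplasm cDNAs. The chromosome 10 locus (55439847 to 55523754, plus strand) was alike, with 397 cDNAs at 353 positions against 19 at 14 (4.80, 4.14 to 5.55). Its chromatin share of 0.0105% was nearer to its cytoplasm share of 0.00517% than to the 0.144% of nucleoplasm. In the 9 others of the highest 10, chromatin shares ran from 0.0805% to 0.971%.

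Among the 10 leading cytoplasm loci, 3 more nuclear ones were called lower in nucleoplasm, and these were short. The chromosome 11 locus (108872978 to 108873431, minus strand) held 1819 nucleoplasm and 9649 cytoplasm cDNAs, shares of 0.661% and 2.63% and a log2 ratio of -1.99 (-2.06 to -1.92). The chromosome 5 locus (147072566 to 147072924, plus strand) held 812 and 5618 cDNAs (-2.37, -2.48 to -2.27). The chromosome 3 locus (5860367 to 5860808, plus strand) held 622 and 4425 cDNAs (-2.41, -2.54 to -2.29). They spanned 454, 359 and 442 nt and were densely covered, with 323, 265 and 230 cytoplasm positions. Their chromatin shares of 1.64%, 1.02% and 0.764% lay between those of nucleoplasm and cytoplasm. Counted as listed positions, the log2 ratios were -0.21, -0.48 and -1.01, so the larger part of each ratio was in the cDNAs per position. Nucleoplasm already had 257, 174 and 105 positions there, so the short spans limited how far the ratio by positions could go.

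The lowest ratios belonged mostly to very short loci. The chromosome 18 locus (41356144 to 41356167, plus strand), 24 nt, held 13 nucleoplasm and 317 cytoplasm cDNAs (-4.19, -5.12 to -3.40). The minus strand of chromosome 2 held 65 and 1101 cDNAs over 40 nt at 90235312 to 90235351 (-3.66, -4.05 to -3.30). It also held 10 and 209 over 4 nt at 172650857 to 172650860 (-3.97, -5.05 to -3.06). In the last, a single nucleotide, 172650859, held all nucleoplasm and 95.2% of cytoplasm cDNAs. On the minus strand of chromosome 1, 34 nt at 146071933 to 146071966 held 26 and 404 cDNAs (-3.54, -4.17 to -2.97). Loci of 511, 196 and 195 nt on chromosome 7 (55392946, minus strand), chromosome 16 (17222369, plus) and chromosome 13 (54285364, minus) held 12 and 197, 93 and 1048, and 102 and 1061 cDNAs. These 7 loci had at least 39 chromatin cDNAs each.

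Long loci were the exception among the lowest 10. The chromosome 19 locus (41288340 to 41338377, minus strand) held 11 nucleoplasm and 199 cytoplasm cDNAs (-3.76, -4.79 to -2.89), at 11 and 170 positions. The chromosome 10 locus (76514962 to 76559274, minus strand) held 11 and 175 (-3.57, -4.60 to -2.70), at 8 and 151 positions. Both were spread widely, over 50038 and 44313 nt, with at most 3 cDNAs at a position, and neither had a chromatin entry. The mitochondrial minus strand was the 10th member of the set, at -3.09 (-3.28 to -2.91).

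Some loci were in 1 list alone. Over both lists together, 1469 loci had at least 50 cDNAs. Of these, 8 had at least 50 in nucleoplasm and none in cytoplasm, and 38 the reverse. The cytoplasm list is the larger, with 367298 cDNAs against 275018, so the fixed minimum of 50 is a smaller share of it. The largest of the first kind were 40 nt on chromosome 17 (24665424, plus strand) with 221 cDNAs, chromosome 5 (147644740, plus strand) with 97 and chromosome 10 (14924104, minus strand) with 83. SRSF7 chromatin had 221, 52 and 145 cDNAs in these. The largest of the second kind were 28 nt on chromosome 16 (11144187, plus strand) with 589 cytoplasm cDNAs, a single nucleotide on chromosome 5 (26603518, plus strand) with 311, and 2 nt on chromosome 10 (94573965, plus strand) with 160. Chromatin had 166, 2 and 6 there. The 38 loci listed only in cytoplasm held 0.990% of its cDNAs, and the 8 listed only in nucleoplasm 0.265%.

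Shares also differed by locus length. Outside the mitochondrial genome, loci of 200 nt to 1 kb held 3.84% of nucleoplasm and 11.1% of cytoplasm cDNAs, a log2 ratio of -1.53 (-1.56 to -1.50). Of the 52 compared loci of that length, 5 were called higher and 27 lower on the same denominator. Loci of 10 to 50 kb held 39.9% and 31.3%, with nearly even calls of 115 higher and 114 lower of 552 (134 and 102 when mitochondrial cDNAs are counted). Loci of 50 to 200 kb held 13.6% and 9.12%, with 52 higher and 23 lower of 260. For loci of 1 to 10 kb the shares were 31.2% and 34.2%, but the log2 ratio of -0.13 turned to 0.56 without the 10 highest loci. The same step brought loci of 200 nt to 1 kb to -0.98, and those of 10 to 50 kb from 0.35 to 0.18. Loci under 200 nt went from -0.36 to -0.48, and those of 50 to 200 kb stayed at 0.58. Under 200 nt the shares were 11.1% and 14.2%, with 27 higher and 34 lower of 137. With all cDNAs counted, the median span was 21.8 kb for higher and 13.8 kb for lower loci, and 33 of 282 and 56 of 207 spanned under 1 kb. The ratio of these medians was 1.58, and 1.40 when loci were joined over the 2 SRSF7 lists alone. With cDNAs counted only at positions of at least 3 cDNAs it was 19.1, from medians of 8.22 and 0.43 kb over 125 higher and 78 lower loci. The bounds of loci still came from all positions there, so only the set of called loci changed.

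Chromatin cDNAs entered no ratio, although chromatin positions helped set the bounds of loci, and their shares are given beside both lists. The 282 higher loci held 33.7% of SRSF7 chromatin cDNAs, and the 207 lower loci 30.2%. Most of the latter was the first chromosome 17 locus, which alone held 19.7%. All 1248 compared loci held 80.1%, and the 759 uncalled ones 16.1%. The median chromatin share of a locus was 0.0274% for higher loci, against 0.0493% in nucleoplasm and 0.0106% in cytoplasm. For lower loci the median was 0.00402% in chromatin, 0.0109% in nucleoplasm and 0.0509% in cytoplasm. No chromatin cDNA was listed at 7 of the 282 higher, 37 of the 207 lower and 66 of the 759 uncalled loci. Over all 1248 compared loci the number was 110. The chromatin list is the shortest of the 3, with 248498 cDNAs at 76172 positions.

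Among clusters well covered in both lists, few differed beyond 2-fold between the fractions as a share of their locus. Positions of both lists were joined to clusters at gaps of up to 30 nt. Clusters nearly absent from 1 list, such as that with 564 and 0 cDNAs on chromosome 19, entered no comparison. A cluster that made up its whole locus could not differ. The share of its own locus was compared for each cluster with at least 50 cDNAs over both lists and 10 in each. Of 827 such clusters in 499 loci, 20 had a share beyond 2-fold higher in nucleoplasm (2.42%) and 36 beyond 2-fold lower (4.35%), and 93.2% were not called. Called clusters lay in 30 loci, of which 6 had a cluster each way. The examples that follow were chosen after their values were seen. In the chromosome 19 locus at 5794731, the cluster at 5801275 to 5801358 had 646 nucleoplasm and 27 cytoplasm cDNAs, or 6.16% and 0.439% of the locus. On the plus strand of chromosome 10, the cluster at 80641689 to 80641732 had 1769 and 99 cDNAs, or 93.9% and 21.1% of its locus. In the other direction, the cluster at 23505206 to 23505228 on the minus strand of the same chromosome had 18 and 42 cDNAs, or 1.25% and 49.4%. On the plus strand of chromosome 11, the cluster from 68886925 to 68886948 had 71 and 258 cDNAs, or 7.63% and 70.7%. In the last locus, and in that of the cluster at 80641689, the cluster that held most cDNAs of one list held a minor part of the other.

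The tallest position of a locus was the same in both lists, within 5 nt, in 319 of 1248 compared loci (25.6%). Agreement went with locus length. Among loci of 1 kb or longer it was the same in 186 of 1059 (17.6%), and in 37 of 249 higher and 31 of 151 lower ones. Among loci under 1 kb it was the same in 21 of 33 higher and 38 of 56 lower ones. Uncalled loci had 192 of 759, of which 118 were among the 659 of 1 kb or longer. In loci of a few nt, agreement within 5 nt is nearly fixed by the length. Of the 5 tallest nucleoplasm positions, 3 lay in the first chromosome 17 locus and 1 in the chromosome 9 locus at 78023133. The other one, on chromosome 6 (124691278, minus strand), was the second tallest and had 599 nucleoplasm and 111 cytoplasm cDNAs.

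Single positions were compared by their nearest neighbour in the other list. Of nucleoplasm positions, 33.7% (33.4 to 33.9) had a cytoplasm position within 5 nt on the same strand, and of cytoplasm positions 32.8% (32.5 to 33.0) had a nucleoplasm one. At the same nucleotide the shares were 16.7% and 15.3%. Sharing rose with height, from 28.0% of nucleoplasm and 26.6% of cytoplasm positions with 1 cDNA to 84.8% and 89.5% of those with more than 20. On the mitochondrial genome, 91.3% of the nucleoplasm positions had a cytoplasm partner and 39.1% of cytoplasm positions a nucleoplasm one. There the shorter nucleoplasm list was nearly contained in the longer one.

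**Figure D4:**
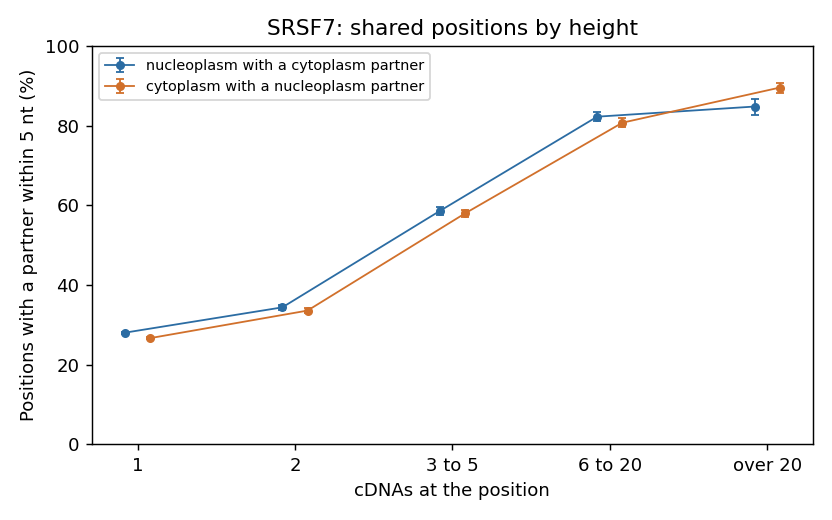
Points show the percentage of SRSF7 positions with a position of the other fraction within 5 nt on the same strand, by the number of cDNAs at the position, with exact 95% intervals; blue is nucleoplasm, orange cytoplasm. Both lines rise, from 28.0% and 26.6% at 1 cDNA to 84.8% and 89.5% above 20 cDNAs.

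As clusters, both lists together gave 57013, of which 8226 (14.4%) had cDNAs of both fractions. These were 25.48% of nucleoplasm and 24.96% of cytoplasm clusters, and they held 65.8% of nucleoplasm and 71.8% of cytoplasm cDNAs. Clusters of 1 fraction alone had a median width of 8 nt and a median of 3 cDNAs in either list, against a width of 32 nt for those of both. Positions shared between the 2 fractions were also listed more often in chromatin. A chromatin position lay within 5 nt of 53.1% of nucleoplasm positions that had a cytoplasm partner and of 13.3% of those that had none. For cytoplasm positions the values were 49.7% and 5.28%.

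The same contrast in SRSF3, from other samples, gave related ratios. Of 921 loci compared for SRSF3, 155 were beyond 2-fold higher in nucleoplasm (16.8%) and 77 lower (8.36%), together 25.2%. Across 622 loci compared in both proteins, the Pearson correlation between SRSF7 and SRSF3 log2 ratios was 0.56 and the Spearman correlation 0.57. This is a description across loci, which share their boundaries and the fractionation method and are not replicates. Of the 139 SRSF7-higher loci among them, 123 had an SRSF3 log2 ratio above 0, with a median of 1.43. Of the 122 SRSF7-lower loci, 26 were above 0, with a median of -0.79. Of the 361 loci not called for SRSF7, 210 were above 0, with a median of 0.22. The median over all 622 was 0.27, and 136 of the 622 were called higher and 60 lower for SRSF3. Called higher for both proteins were 66 loci, 47.5% of the SRSF7 and 48.5% of the SRSF3 list. Called lower for both were 27, 22.1% of the SRSF7 and 45.0% of the SRSF3 list.

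**Figure D5:**
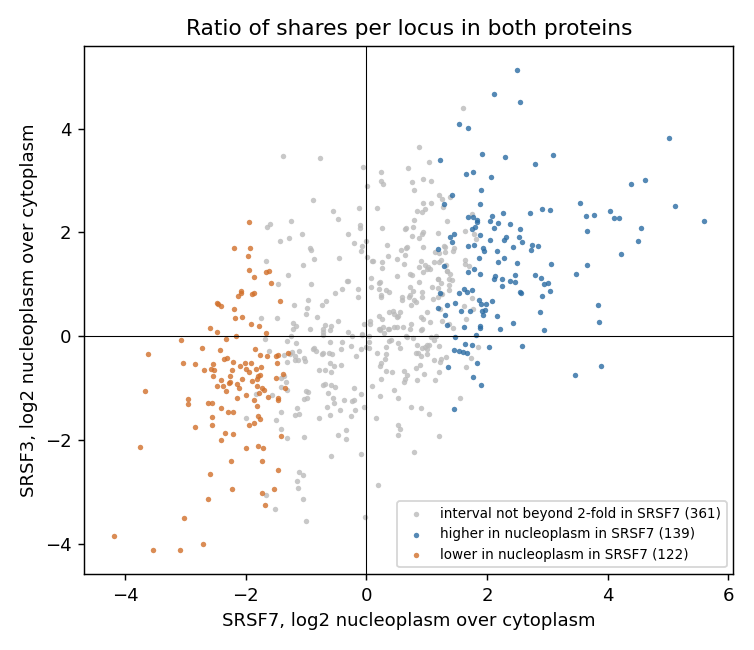
Each point is 1 of the 622 loci compared in both proteins, with the log2 ratio of nucleoplasm over cytoplasm shares for SRSF7 on the horizontal and for SRSF3 on the vertical axis; blue and orange mark loci called higher and lower for SRSF7. The SRSF3 median was 1.43 over the 139 blue points and -0.79 over the 122 orange points.

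Leading loci that were far higher in nucleoplasm for SRSF7 were also higher there for SRSF3. The chromosome 1 locus at 162965305 had an SRSF3 log2 ratio of 3.00 (2.77 to 3.23), that on chromosome 2 at 166888719 had 2.51 (2.29 to 2.74), and that on chromosome 11 at 62416375 had 3.82 (3.46 to 4.21). All 3 were smaller than for SRSF7, with intervals that did not meet. The chromosome 17 locus at 80586414 went the other way, with 3.40 (2.58 to 4.34) for SRSF3 against 1.22 for SRSF7. The first chromosome 17 locus had -0.39 (-0.41 to -0.37) for SRSF3 against -1.50 for SRSF7.

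The proteins differed on the mitochondrial genome. The SRSF3 share was 9.79% in nucleoplasm and 16.7% in cytoplasm, 1.71-fold against 6.16-fold for SRSF7. Mitochondrial ribosomal RNA held 8.11% of SRSF3 nucleoplasm and 8.12% of SRSF3 cytoplasm cDNAs, while for SRSF7 the shares were 1.21% and 5.72%, a log2 ratio of -2.24 (-2.30 to -2.19). The even SRSF3 sums joined opposite shifts, as mt-Rnr1 had a log2 ratio of -1.63 (-1.69 to -1.56) and mt-Rnr2 of 0.48 (0.45 to 0.51). In both proteins mt-Rnr1 thus had the lower ratio. Plus-strand messenger RNAs had -1.27 (-1.32 to -1.21) for SRSF3 and -5.19 (-5.55 to -4.85) for SRSF7. Transfer RNAs were lower in nucleoplasm for both, at -4.31 (-4.44 to -4.19) for SRSF3 and -3.68 (-3.85 to -3.51) for SRSF7 on the plus strand. COX1 had 794 and 2425 SRSF3 cDNAs in nucleoplasm and cytoplasm, beside its 21 and 2087 SRSF7 cDNAs.

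Opposite calls were made at 4 loci. Lower for SRSF7 and higher for SRSF3 were chromosome 15 (72911380 to 72985774, minus strand) (-1.94 and 1.69), chromosome 16 (32609070 to 32650610, plus strand) (-1.94 and 2.20) and chromosome 4 (117880540 to 117930157, minus strand) (-2.20 and 1.69). The chromosome 4 locus (131815256 to 131829690, minus strand) was higher for SRSF7 and lower for SRSF3 (1.45 and -1.41). The first 3 held 18 and 92, 24 and 123, and 40 and 245 SRSF7 cDNAs in nucleoplasm and cytoplasm, and the last 259 and 127.

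The limit of 2-fold divided loci that hardly differed. Just inside on the higher side was chromosome 17 (23940254, plus strand) with 660 and 385 cDNAs (1.20, 1.01 to 1.38), and just outside chromosome 16 (91248948, plus strand) with 51 and 20 (1.77, 0.996 to 2.59). On the lower side they were chromosome 3 (108128573, plus strand) with 23 and 99 (-1.69, -2.41 to -1.02) and that of chromosome 14 at 21450946 with 10 and 53 (-1.99, -3.13 to -0.999). Deeply covered loci thus passed at smaller ratios than thinly covered ones.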

How the data were processed

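P19 cells making SRSF7-GFP or SRSF3-GFP were crosslinked, fractionated and taken through iCLIP, per the labels' protocols. The authors pooled the replicates of each protein and fraction and deposited 1 list per group, per the sample descriptions. Each deposited value is a score at 1 nucleotide, a signed whole number whose size was read as the cDNA count and whose sign was read as the strand; the files do not state the strand rule. Listed positions passed a false discovery rate of 0.05 against 100 permutations in a neighbourhood of 15 nt, per the file headers. The SRSF7 headers name regions both as one and as treated separately, so which was done is unclear. The build is mm9 (per the file headers and the submitters' processing notes), and positions are counted from 1. Not given in the sources used here were the aligner, the way duplicates were removed and the peak caller's version.

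Listed cDNAs numbered 275018 in nucleoplasm and 367298 in cytoplasm. These are cDNAs at listed positions, not whole libraries. Shares, intervals, loci, clusters and calls were computed as described with the results. Named loci comprise the 10 of highest share in each list, the 10 highest and 10 lowest called loci ranked by the interval bound nearest to no change, the 3 largest listed in 1 list each way, and the 5 tallest positions of each list and of its mitochondrial genome. These rules, the comparison and the lists were chosen with earlier results of these data known. Loci outside the mitochondrial genome are given by coordinates, since no annotation of mm9 was used here, so the planned marker genes of nuclear RNA and of P19 cells were not looked up. Calling of loci was tested on simulated data with counting error only, which cannot show how calls fare under variation among replicates. The software was Python 3.11.15 with scipy 1.17.1, numpy 2.4.6 and pandas 2.3.3, and matplotlib 3.10.9 for figures.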

Additional observations from a re-analysis of the deposited data

How the results depend on the processing

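Called loci numbered 282 higher and 207 lower in nucleoplasm, with 57.7% of the called ones higher. Centring on the median locus gave 179 higher (38.7%), and leaving out the mitochondrial genome, alone or with the 10 highest loci, gave 52.1% and 44.6%. With positions of at least 3 cDNAs there were 125 higher and 78 lower. With at least 200 cDNAs per locus there were 128 and 116 (52.5%), with no minimum in each list 364 lower (48.1% higher), and beyond 4-fold 73 and 44 (62.4%). Counting positions in place of cDNAs left 100 higher (41.5%). The share of positions with a partner moved from 33.7% of nucleoplasm and 32.8% of cytoplasm positions to 16.7% and 15.3% at the same nucleotide, 44.3% and 44.4% within 30 nt, and 53.3% and 53.2% with at least 3 cDNAs. The Pearson and Spearman correlations with SRSF3 were 0.66 and 0.68 with at least 3 cDNAs and 0.43 and 0.47 by positions. The ratio of median spans was 19.1 with at least 3 cDNAs, where the bounds of loci were kept, and 2.69 when 1000 nt was the gap joining positions. The cause of these moves was not tested. The log2 ratio of the mitochondrial share was -2.62, and -2.43 and -2.03 under its 2 alternatives. Of 258 alternative values for named loci, 240 kept their call, 17 fell short of it and 1 passed it (the chromosome 9 locus at 78023133, 1.18 with at least 3 cDNAs), and no called value changed sign. That chromosome 9 locus, not called in the comparison at 0.93, was at -0.07 by positions. A named locus no longer compared under an alternative gave no value there, and is counted neither as kept nor as lost. Part of the 240 was fixed in advance. Requiring at least 200 cDNAs per locus, or no minimum in each list, leaves the ratio and interval of a locus unchanged. Leaving out replicates was not run, because each group is 1 pooled list. No paired analysis was possible because the replicates of each group were pooled before deposit. Depth limits the thinly covered loci, and a locus absent from a list may lie under the authors' threshold.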
